A study of Mus musculus with 13 samples.

Results

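Transcript levels of 10 genes that encode parts of the smooth muscle contractile apparatus or are textbook targets of the transcription factors SRF and YAP were followed in mouse embryonic stem (ES) cells. The genes were taken by symbol: Acta2, Tagln, Cnn1, Myl9, Actg2, Tpm1 and Tpm2 as contractile genes, and Ctgf, Cyr61 and Ankrd1 as the set most often used to read out YAP. All 10 were present among the 26797 genes listed in the files of the replicate libraries and among the 49671 genes of a joint count table. The study asked how methylated promoters are kept silent, and compared wild-type (WT) ES cells with ES cells that lack the maintenance DNA methyltransferase DNMT1 (Dnmt1-/-), 3 replicate libraries each. It also sequenced 1 library of cells that express dCas9-OGA, a catalytically dead Cas9 fused to a bacterial O-GlcNAcase that removes the sugar O-GlcNAc from proteins, and 1 library of cells that express dCas9-OGA-D242A, the same fusion with an inactive enzyme.

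The WT replicates are AinV15 ES cells, a line that carries the reverse tetracycline transactivator, and they were untreated. The Dnmt1-/- replicates are untreated cells of a different line, labelled as the D1-null strain with the C allele, so that the loss of DNMT1 and the change of cell line cannot be told apart. Both dCas9 populations are AinV15 cells selected after recombination of a doxycycline-inducible cassette, wild type for Dnmt1, with 4 sgRNAs against the IAP retrotransposon. They were drug-selected and treated with doxycycline to induce the fusion, so their comparisons with untreated WT cells also differ in treatment. The joint table also holds a WT library and a Dnmt1-/- library, which its column names do not tie to any replicate. All cells were grown in serum with leukemia inhibitory factor on gelatin-coated plates, and no label ties the replicates to separate cultures, so the p-values below measure only the spread between these libraries.

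Smooth muscle actin, transgelin, calponin, tropomyosins and the regulatory light chain build and regulate contractile actin filaments, and fibroblasts and many adherent cells use the same genes in stress fibers. SRF binds the CArG box of their promoters and is switched on by its cofactors MRTF-A and MRTF-B (genes Mkl1 and Mkl2) when actin polymerizes, or by myocardin (Myocd) in mature smooth muscle. YAP and TAZ (Yap1 and Wwtr1) enter the nucleus under tension, bind TEAD factors and drive Ctgf, Cyr61 and Ankrd1, and the LATS kinases of the Hippo pathway keep them out.

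Promoters of 7 of the 10 genes were found in RefSeq on GRCm38.p6. Entries for Tagln, Actg2 and Ctgf were not among those used. The transcription start is that of RefSeq, while the gene spans given further below are those of GENCODE. Their starts differ for most genes, so that the 250 bases used can lie inside the span. They do so wholly for Ankrd1, in part for Acta2, Cnn1, Myl9, Tpm1 and Tpm2, and not for Cyr61. Distances and CpG counts hold for the RefSeq start only. The 250 bases before the transcription start are shown for the genes that hold a motif bound by SRF or TEAD factors, with the motifs in capitals, 5′ to 3′ along the gene. They are the CArG box with at most 1 G or C among its 6 central bases, the TEAD motif GGAATG on either strand, and TATAAA on the gene's strand.
Acta2, chr19:34255374-34255623, minus strand: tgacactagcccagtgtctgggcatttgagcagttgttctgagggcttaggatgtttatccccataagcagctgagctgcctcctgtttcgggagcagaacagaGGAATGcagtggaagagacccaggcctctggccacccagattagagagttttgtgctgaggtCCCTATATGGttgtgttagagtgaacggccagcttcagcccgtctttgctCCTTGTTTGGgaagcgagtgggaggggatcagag
Myl9, chr2:156775214-156775463, plus strand: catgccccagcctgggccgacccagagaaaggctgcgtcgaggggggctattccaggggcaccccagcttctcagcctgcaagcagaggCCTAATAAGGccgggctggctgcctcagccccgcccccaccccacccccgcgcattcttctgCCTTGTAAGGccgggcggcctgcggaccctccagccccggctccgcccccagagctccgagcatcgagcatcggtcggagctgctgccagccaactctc
Tpm1, chr9:67049214-67049463, minus strand: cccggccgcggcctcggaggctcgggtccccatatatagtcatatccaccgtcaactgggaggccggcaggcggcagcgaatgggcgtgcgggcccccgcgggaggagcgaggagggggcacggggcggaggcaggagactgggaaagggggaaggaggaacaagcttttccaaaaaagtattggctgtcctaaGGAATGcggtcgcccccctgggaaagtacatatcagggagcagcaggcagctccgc
Cyr61, chr3:145649986-145650235, minus strand: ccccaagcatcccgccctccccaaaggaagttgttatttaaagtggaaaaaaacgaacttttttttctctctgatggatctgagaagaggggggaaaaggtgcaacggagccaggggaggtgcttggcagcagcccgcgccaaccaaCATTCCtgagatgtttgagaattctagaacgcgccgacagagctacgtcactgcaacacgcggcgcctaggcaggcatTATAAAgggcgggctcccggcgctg
Ankrd1, chr19:36119845-36120094, minus strand: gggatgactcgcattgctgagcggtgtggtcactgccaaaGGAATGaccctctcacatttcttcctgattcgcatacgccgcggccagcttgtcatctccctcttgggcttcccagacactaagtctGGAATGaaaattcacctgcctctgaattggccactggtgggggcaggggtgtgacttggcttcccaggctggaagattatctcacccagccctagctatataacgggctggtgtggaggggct

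The strict CArG box, with only A and T in its center, was present in 1.47% of the 32851 promoters and in 1 of the 7, that of Myl9. With 1 central G or C allowed, the share was 8.59% of all promoters and 2 of the 7, with 2 boxes each in Acta2 and Myl9. The Acta2 boxes began 84 and 34 bases before the start, and those of Myl9 at 161, the strict box, and 99 bases. The TEAD motif was present in 12.6% of all promoters and in 4 of the 7, namely Acta2, Tpm1, Cyr61 and Ankrd1, which held it at 210 and 123 bases before its start. TATAAA was found in 7.59% of all promoters and only in Cyr61 among the 7, 25 bases before the start. These matches describe letters in a short window and say nothing about binding. The window held 4 CpG dinucleotides in Acta2, 3 in Cnn1, 7 in Ankrd1, 15 in Cyr61, 16 in Myl9, 17 in Tpm2 and 19 in Tpm1, against a median of 6 and an interquartile range of 2 to 16 in all promoters. Among the genes with large falls in Dnmt1-/- cells, given next, some of these windows held few CpG and others many. Any relation of CpG content or promoter methylation to the falls was not tested.

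In Dnmt1-/- cells 9 of the 10 genes fell and 1, Cyr61, rose. The 7 contractile genes and Ankrd1 fell by a large factor, whereas the matricellular genes Ctgf and Cyr61 moved little and in opposite directions. The values below are the authors' normalized signal, read counts divided by a scaled library size, given as mean ± SD of 3 libraries. Fold changes are on the log2(signal + 0.5) scale, Dnmt1-/- minus WT, with limma and Benjamini-Hochberg adjustment over the 17297 genes tested. Dnmt1 itself, which is null in the Dnmt1-/- line, measured 336 ± 24.1 in WT and 75.5 ± 2.02 in Dnmt1-/- libraries.

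**Figure D1:**
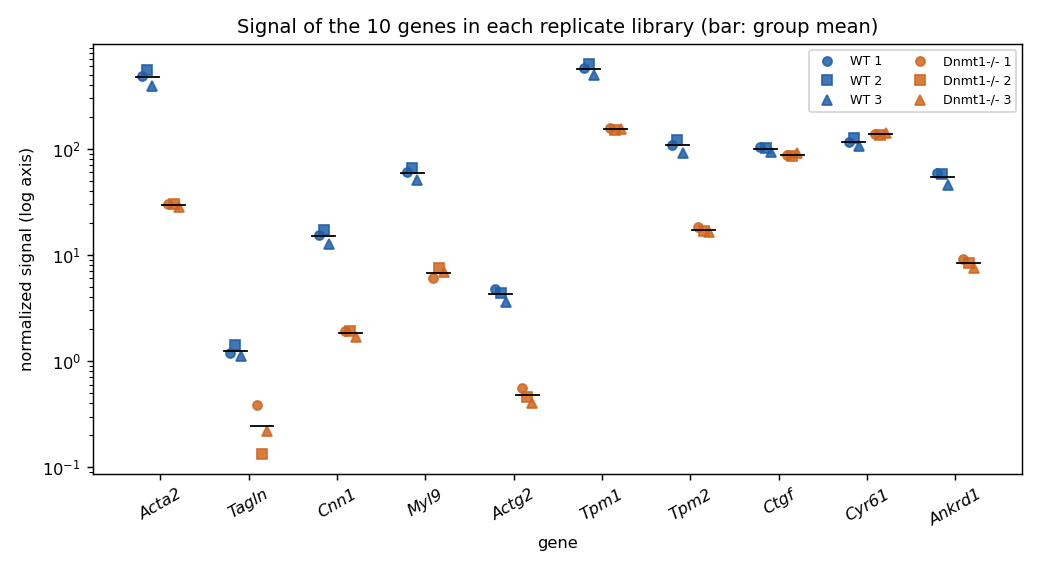
Normalized signal (log axis) of each of the 10 genes (horizontal axis) in the 3 WT libraries (blue) and the 3 Dnmt1-/- libraries (orange). Each symbol is 1 library and each bar a group mean. The groups were apart for all 10 genes, by a mean of 16.2-fold for Acta2 and by 1.14-fold for Ctgf.

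Acta2 (chr19:34241090-34255590, minus strand) encodes smooth muscle alpha-actin, the defining actin of smooth muscle and of myofibroblasts. Its signal was 491, 560 and 392 in WT replicates 1 to 3 and 30.3, 30.5 and 28.1 in Dnmt1-/- replicates 1 to 3. The groups did not overlap and the WT mean was 16.2-fold the Dnmt1-/- mean. The log2 fold change was −3.98 (SE 0.08, limma adjusted p = 2.0e-22), and 14 of the 17297 genes fell further. Actg2 (chr6:83512905-83536265, minus strand), the gamma-actin of visceral smooth muscle, stood far lower, at 4.75, 4.41 and 3.59 in WT and 0.557, 0.460 and 0.405 in Dnmt1-/- libraries. It too was apart in every library, with a log2 fold change of −2.28 (SE 0.14, limma adjusted p = 3.0e-13) that rested on 11 to 16 reads per Dnmt1-/- library and ran from −3.18 with DESeq2 to −1.33 with a pseudocount of 2.

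Calponin and transgelin bind actin filaments beside tropomyosin. Cnn1 (chr9:22099216-22109630, plus strand) measured 15.3, 17.3 and 12.7 in WT and 1.92, 1.91 and 1.69 in Dnmt1-/- libraries, a log2 fold change of −2.73 (SE 0.11, limma adjusted p = 2.4e-16). Tagln (chr9:45929619-45936058, minus strand), often the most abundant transcript of this set in smooth muscle, was at the edge of detection here. Its signal was 1.18, 1.40 and 1.11 in WT and 0.383, 0.131 and 0.221 in Dnmt1-/- libraries, from 31 to 54 and 4 to 11 reads. The log2 fold change was −1.23 (SE 0.16, limma adjusted p = 1.8e-07), and between −2.35 with DESeq2 and −0.53 with a pseudocount of 2. Of its 1988 exonic bases 62.4% also lie in exons of Gm48529 and 5.43% in exons of Pcsk7, both on the opposite strand. The sources do not give a strand setting for the counting, so reads of Tagln and of its antisense partners cannot be told apart.

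Myl9 (chr2:156775420-156781658, plus strand) encodes the regulatory light chain whose phosphorylation starts contraction. It measured 61.0, 66.2 and 51.3 in WT and 6.09, 7.50 and 6.85 in Dnmt1-/- libraries, and fell by 3.03 on the log2 scale (SE 0.09, limma adjusted p = 1.5e-19). Tpm1 and Tpm2 encode tropomyosins, which run along actin filaments. Tpm1 (chr9:67022590-67049406, minus strand) had the highest signal of the set, with 583, 638 and 497 in WT and 156, 151 and 154 in Dnmt1-/- libraries. Its WT mean was 3.72-fold its Dnmt1-/- mean, the smallest ratio among the 7 contractile genes, with a log2 fold change of −1.88 (SE 0.06, limma adjusted p = 4.3e-18). Tpm2 (chr4:43514711-43523765, minus strand) fell from 110, 122 and 91.7 to 18.2, 17.0 and 16.5, a log2 fold change of −2.60 (SE 0.07, limma adjusted p = 2.1e-19).

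Ctgf and Cyr61 encode secreted matricellular proteins of the CCN family and are the most used YAP targets. Ctgf (chr10:24595442-24598683, plus strand) measured 105, 102 and 93.5 in WT and 87.7, 85.5 and 91.5 in Dnmt1-/- libraries. The lowest WT library, at 93.5, came close to the highest Dnmt1-/- library, at 91.5, and the log2 fold change was −0.18 (SE 0.05, limma adjusted p = 0.0037). Of its 2861 exonic bases 23.2% lie in exons of the antisense gene Gm15270. Cyr61 (chr3:145646976-145649981, minus strand) measured 116, 127 and 106 in WT and 139, 134 and 142 in Dnmt1-/- libraries. All Dnmt1-/- values lay above all WT values, and the log2 fold change was 0.25 (SE 0.06, limma adjusted p = 3.9e-04). Ankrd1 (chr19:36111961-36120099, minus strand), a nuclear ankyrin-repeat cofactor of muscle and a YAP target, did not follow Ctgf and Cyr61. It fell from 59.7, 58.4 and 46.2 to 9.12, 8.32 and 7.52, a log2 fold change of −2.64 (SE 0.09, limma adjusted p = 2.3e-18).

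These counts have to be read against a comparison in which many genes moved. Of all genes tested, 35.4% were lower and 35.8% higher in Dnmt1-/- cells, and 73.3% had groups that did not overlap, which all 10 genes had as well. The median log2 fold change was −2.44 over the 10 genes, −2.60 over the 7 contractile genes and 0.01 over all genes. A fall of at least 4-fold, a limit chosen after the values were seen, was called for 1.99% of all genes and for 6 of the 10, namely Acta2, Cnn1, Myl9, Actg2, Tpm2 and Ankrd1. In bulk RNA fewer cells of a type and less RNA per cell cannot be told apart.

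Among the WT libraries, replicate 3 was the lowest for all 10 genes and replicate 2 the highest for 7. The WT spread was widest for Acta2, at 1.43-fold between the highest and the lowest library, and was 1.13-fold for Ctgf. Dnmt1-/- libraries lay closer together for 8 of the 10 genes. The exceptions were Tagln and Actg2, the genes with the fewest reads, which spread 2.91-fold and 1.37-fold.

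Levels were compared between genes as signal per kilobase of exon. In WT cells the order was Acta2 (219), Tpm1 (88.3), Cyr61 (57.6), Myl9 (51.2), Tpm2 (37.1), Ctgf (35.1), Ankrd1 (19.0), Cnn1 (5.52), Actg2 (2.73) and Tagln (0.620). The neighbours Cyr61 and Myl9 overlapped in their ranges over libraries, as did Tpm2 and Ctgf. In Dnmt1-/- cells Cyr61 (68.4) and Ctgf (30.8) came ahead of Tpm1 (23.7) and Acta2 (13.5). Tpm2 (5.93) and Myl9 (5.86) overlapped, and Ankrd1 (2.88), Cnn1 (0.672), Actg2 (0.305) and Tagln (0.123) kept the lower places.

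The share of Acta2, Tpm1 and Tpm2 in their gene families was lower in Dnmt1-/- cells, while the order of the 4 actins measured stayed the same. Values of Acta1 and Actc1 from the replicate libraries were not used here. Acta2 made up 12.2% ± 1.56 of the signal per length of Acta2, Actb, Actg1 and Actg2 in WT and 0.914% ± 0.0581 in Dnmt1-/- libraries (n = 3 each). Of the cytoplasmic actins, Actb measured 2606 ± 114 and 2424 ± 39.2 and Actg1 1577 ± 77.1 and 1486 ± 42.0, and neither was called by limma (adjusted p = 0.15 and 0.21). Tpm1 went from 43.7% ± 1.30 to 26.0% ± 0.395 and Tpm2 from 18.3% ± 0.873 to 6.50% ± 0.372 of the tropomyosin signal per length. Tpm3 rose slightly, with a log2 fold change of 0.19 (limma adjusted p = 0.0012), and its share went from 22.3% to 55.7%. Cnn2 fell like Cnn1, by 1.80 on the log2 scale, while Cnn3 (305 ± 12.8 and 290 ± 8.01) and Tagln2 (158 ± 7.81 and 162 ± 6.07) were not called. Of 12 paralogs tested, 6 fell, 2 rose and 4 were not called, beside 35.4% of all genes lower and 35.8% higher. The largest falls on the log2(signal + 0.5) scale were those of the CCN genes Wisp1, from 50.1 ± 5.31 to 6.996 ± 0.223, and Wisp2, from 2.43 ± 0.422 to 0.117 ± 0.0266. Annotated transcripts of Actg1 share 37.4% and those of Tpm3 23.2% of their 50-base words with other genes, so their levels are uncertain, whereas Acta2 shares 0.326% and the other 9 genes share 0%.

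Other genes of the same pathways were counted from lists. Of 27 further SRF targets tested, 24 fell, 1 rose and 2 were not called, beside 35.4% of all genes lower and 35.8% higher. Their median log2 fold change was −0.95, against 0.01 over all genes. Vcl (vinculin) fell by 0.58 and Flna (filamin A) by 1.21 on the log2 scale. The largest falls on that scale were those of Tgfb1i1 (24.6 ± 3.35 to 3.00 ± 0.179), a focal adhesion adaptor, Thbs1 (865 ± 138 to 171 ± 5.93), which encodes thrombospondin 1, and Lmod1 (13.5 ± 2.47 to 2.64 ± 0.331), an actin nucleator of smooth muscle. Smtn, which encodes smoothelin, rose from 29.3 ± 0.480 to 49.3 ± 0.735.

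The upstream machinery was split much as all genes were. Of 15 genes of the SRF and MRTF machinery tested, 6 fell, 5 rose and 4 were not called, with a median of −0.05, beside 35.4% of all genes lower and 35.8% higher. Mkl1 (MRTF-A) fell by 0.19 on the log2 scale (SE 0.06, limma adjusted p = 0.012), from 48.0 ± 4.80 to 42.0 ± 2.00. Rhoc and Elk3 fell most on the log2 scale, by 1.17 and 0.95, and Limk1, which phosphorylates cofilin, rose by 0.93. Values of Srf from the replicate libraries were not used here. Myocd measured 0.102 ± 0.117 and 0.128 ± 0.0406 and did not pass the filter on low genes.

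Of 19 further YAP targets, 12 fell, 0 rose and 7 were not called, with a median of −0.56, beside the same shares over all genes. Axl (234 ± 39.9 to 34.2 ± 2.32), a receptor tyrosine kinase, and Ccdc80 (95.8 ± 15.3 to 14.3 ± 0.534), an extracellular matrix protein, fell like Ankrd1. Amotl2 (238 ± 14.6 and 234 ± 11.3) and Myof (193 ± 10.4 and 182 ± 6.60) were not called. Of 18 Hippo and YAP machinery genes, 8 fell, 6 rose and 4 were not called, again close to the shares over all genes. Yap1 measured 224 ± 2.03 and 209 ± 8.79 and was not called (limma adjusted p = 0.064), and Wwtr1 (TAZ) fell by 0.30. The TEAD genes diverged, since Tead1 fell by 0.88 and Tead4 rose by 1.68 on the log2 scale.

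**Figure D2:**
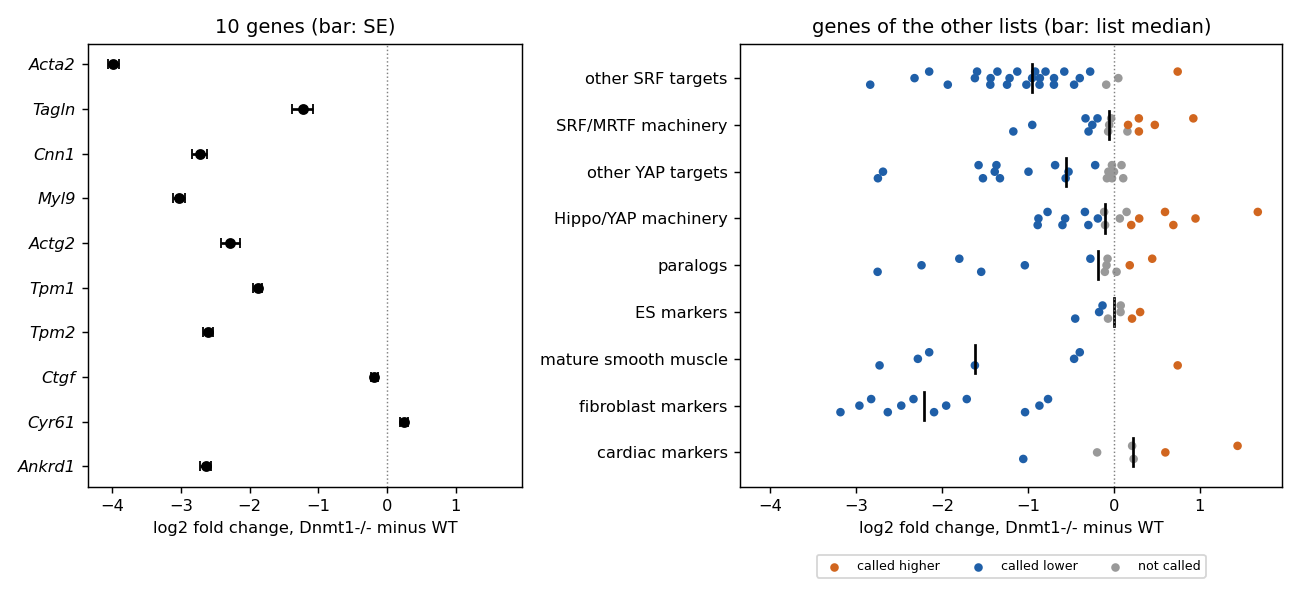
Log2 fold change (Dnmt1-/- minus WT, horizontal axes) of the 10 genes with SE (left) and of the genes of 9 other lists, 1 point each, with bars at the list medians (right). Orange points were called higher, blue points lower and grey points were not called at an adjusted p of 0.05. The further SRF targets (median −0.95) and the fibroblast markers (median −2.21) lie to the left of 0, and the ES markers (median 0.01) around it.

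Cells labelled as ES cells carried the ES markers in every library. The summed signal of 8 such genes was 5569 to 5706 in WT and 5410 to 5795 in Dnmt1-/- libraries. The 8 markers of mature smooth muscle, which include Cnn1 and Actg2, summed to 96.8 to 120 in WT and 85.9 to 88.5 in Dnmt1-/- libraries. Myh11, smooth muscle myosin, measured 3.35 ± 0.391 in WT and 0.752 ± 0.0863 in Dnmt1-/- cells, and Myocd was near 0 in both. Des, which encodes desmin, was higher, at 39.0 ± 5.61 and 29.3 ± 1.31, as was Smtn. Of the 7 tested in that list, 6 fell and 1, Smtn, rose, beside 35.4% of all genes lower and 35.8% higher. No gene tested there is new. Cnn1 and Actg2 are among the 10 genes, and Myh11, Des, Lmod1, Smtn and Synpo2 were counted above as further SRF targets. Of 6 cardiac markers tested, 1 fell, 2 rose and 3 were not called. Among markers of other lineages, beside 35.8% of all genes higher and 35.4% lower, 5 of 6 trophoblast markers rose and 1 fell, 7 of 11 primitive endoderm markers rose and 1 fell, 3 of 5 mesoderm markers rose and 0 fell, and 2 of 2 skeletal muscle markers rose. The trophoblast sum went from between 110 and 119 in WT to between 235 and 240 in Dnmt1-/- libraries, and the primitive endoderm sum from between 1465 and 1659 to between 1782 and 1869. The single libraries went the other way, with trophoblast markers at 83.3 cpm in Dnmt1-/- and 573 cpm in WT cells (0 of 6 at least 2-fold higher and 5 lower) and primitive endoderm markers at 383 and 897 cpm (0 of 10 higher and 7 lower), beside 10.5% of all genes higher and 6.89% lower there. Of 4 mesoderm markers compared there, 0 were higher and 2 lower, and the difference between the datasets was not tested. The part of these lineages in the fall of the 10 genes was not tested.

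Markers of fibroblasts, cells that are used as feeders and also express Acta2, Tagln, Cnn1 and Thbs1, moved together with the contractile genes. All 12 were tested and all 12 fell, beside 35.4% of all genes lower and 35.8% higher, with a median log2 fold change of −2.21 beside −2.60 for the contractile genes. Col1a1 went from 539 ± 108 to 125 ± 7.41 and Col1a2 from 401 ± 73.7 to 71.0 ± 3.26. Prrx1 (39.3 ± 4.998 to 3.88 ± 0.489), Dcn (56.9 ± 6.54 to 6.92 ± 1.34) and Postn (29.1 ± 4.17 to 3.68 ± 0.632) fell most on the log2(signal + 0.5) scale, while the ratio of means was largest for Twist2 (5.40 ± 0.382 to 0.473 ± 0.263). None of the 12 was at 0 in WT cells, where Lum was the lowest at 0.525 ± 0.164. Their summed signal was 1394, 1635 and 1147 in WT replicates 1 to 3 and 292, 304 and 273 in Dnmt1-/- replicates 1 to 3. The 7 contractile genes summed to 1266, 1409 and 1049 and to 214, 209 and 208. Both sums were highest in WT replicate 2 and lowest in WT replicate 3, an order that the primitive endoderm sum (1512, 1659 and 1465) and the mature smooth muscle sum (109, 120 and 96.8) had as well. The part of fibroblast RNA in the fall of the 10 genes was not tested.

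**Figure D3:**
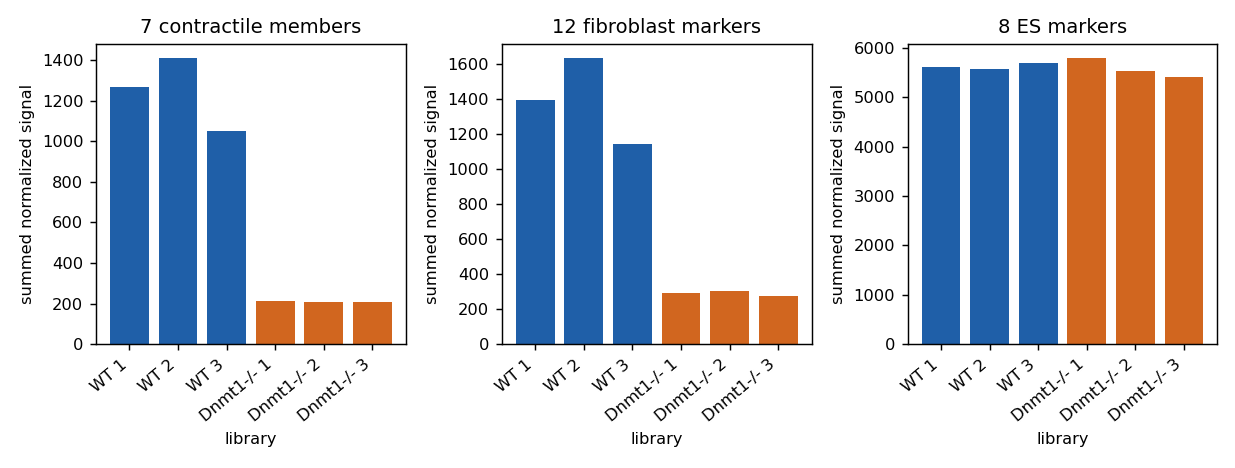
Summed normalized signal (vertical axes, from 0) in each replicate library of the 7 contractile genes (left), 12 fibroblast markers (center) and 8 ES markers (right), WT in blue and Dnmt1-/- in orange. The contractile and fibroblast sums are lower in all 3 Dnmt1-/- libraries and are highest in WT replicate 2 and lowest in WT replicate 3, while the ES sums stay between 5410 and 5795.

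The joint table allowed the same genes to be read in the dCas9 cells. The comparison of dCas9-OGA with dCas9-OGA-D242A addresses what the active enzyme changes beyond the binding of the fusion. Each condition has 1 library, with 24955180 and 24828078 counts on genes, so no difference has a replicate check and none was tested. Values are cpm, the counts of a gene relative to all counts of its library after TMM scaling, and genes were compared on the log2(cpm + 0.5) scale where both libraries summed to at least 100 counts. The 95% intervals are exact Clopper-Pearson intervals of the plain cpm ratio and cover counting error only.

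All 7 of the 10 genes that could be compared were lower with the active than with the inactive enzyme, 5 of them by at least 2-fold, where 7.22% of 12722 genes were 2-fold lower and 4.88% were 2-fold higher. With a pseudocount of 5 cpm 3 of the 7 were 2-fold lower, since Acta2 came to −0.95 and Cyr61 to −0.90 on the log2 scale. Acta2 had 25 counts (1.01 cpm) with the active and 165 counts (6.64 cpm) with the inactive enzyme, a log2 ratio of −2.24 (interval of the plain ratio −3.39 to −2.11). Cnn1 had 48 and 239 counts (1.93 and 9.62 cpm), a log2 ratio of −2.06. Myl9 stood furthest apart, with 31 and 260 counts (1.25 and 10.5 cpm) and a log2 ratio of −2.65 (interval −3.65 to −2.53). These 3 genes reached the minimum of 100 counts only through the library with the inactive enzyme, so they are no support for the count, and their log2 ratios depend on the pseudocount. Of the other 4, Tpm1 and Cyr61 were at least 2-fold lower.

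The more abundant tropomyosins differed less. Tpm1 had 1556 and 4355 counts (62.7 and 175 cpm), a log2 ratio of −1.48 (interval −1.57 to −1.40), and Tpm2 had 515 and 987 counts (20.7 and 39.7 cpm), a log2 ratio of −0.92. Cyr61 had 342 and 748 counts (13.8 and 30.1 cpm), a log2 ratio of −1.10. Ctgf had 464 and 802 counts (18.7 and 32.3 cpm) and a log2 ratio of −0.77. Tagln (1 and 11 counts), Actg2 (2 and 2) and Ankrd1 (0 and 9) were too rare to compare. For Ankrd1 the count of 0 allows up to 3 counts, or 0.121 cpm.

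Against the single WT library, all 7 were at least 2-fold lower in dCas9-OGA, where 9.78% of genes were 2-fold lower and 14% were 2-fold higher. Acta2, Cnn1 and Myl9 reached the minimum of 100 counts only through the WT library, so their place among the 7 is no support for the count. In dCas9-OGA-D242A 3 of the 7 were 2-fold lower, against 8.28% of genes lower and 12.5% higher. Markers of some lineages were lower than in WT as well. Of 4 mesoderm markers compared, 4 were at least 2-fold lower with the active and 3 with the inactive enzyme, of 6 trophoblast markers 4 and 4, and of 10 primitive endoderm markers 3 and 7, with 0 at least 2-fold higher in any of these lists. The mesoderm list held 169 counts with the active enzyme and 1199 in WT. Most of its 4 genes thus reached the minimum only through the WT library and are no support for the count. Their part in the differences of the 7 genes was not tested. These comparisons share the WT library and, with the one above, the dCas9 libraries, so their values are only set side by side. Acta2 had 14.4 cpm in WT and log2 ratios of −3.30 with the active and −1.06 with the inactive enzyme. Cyr61 had 103 cpm in WT and log2 ratios of −2.86 and −1.76, and Ctgf had 81.1 cpm and −2.09 and −1.32. For Myl9 (11.2 cpm in WT) the ratios were −2.74 and −0.10, the second with a counting interval of −0.35 to 0.15. Tpm1 (289 cpm in WT) had −2.19 and −0.72, Tpm2 (51.8 cpm) −1.30 and −0.38, and Cnn1 (16.9 cpm) −2.83 and −0.78. The library with the inactive enzyme lay between the other two for all 7.

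**Figure D4:**
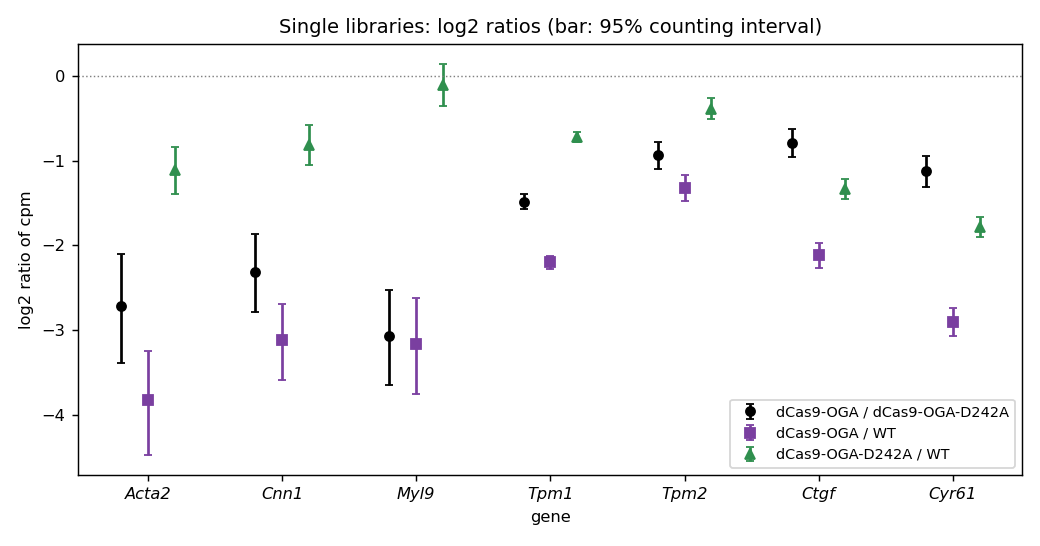
Log2 ratio of cpm (vertical axis, no pseudocount) for the 7 genes with at least 100 summed counts, in dCas9-OGA against dCas9-OGA-D242A (black circles), dCas9-OGA against WT (purple squares) and dCas9-OGA-D242A against WT (green triangles), 1 library each. Bars are 95% counting intervals and do not hold biological spread. All black and purple points lie below 0, and the green interval of Myl9 spans 0.

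Of 23 other SRF targets compared in the dCas9 cells, 7 were at least 2-fold lower and 1 at least 2-fold higher with the active enzyme, beside 7.22% of all genes lower and 4.88% higher, with a median log2 ratio of −0.25 beside 0.03 for all genes and −1.48 for the 7 genes. Thbs1 (3.06 and 23.3 cpm) and Egr1 (14.3 and 54.6 cpm), an immediate early gene, were lowest. Thbs1 reached the minimum count only through the library with the inactive enzyme, so it is no support for the number of SRF targets lower. Others of these targets may have reached it in the same way. Srf itself had 65.8 and 114 cpm, a log2 ratio of −0.79. Of 16 genes of the SRF and MRTF machinery compared, 0 were at least 2-fold lower and 1 at least 2-fold higher, with a median of −0.10. Of 14 further YAP targets compared, 2 were 2-fold lower, Axl (5.12 and 23.5 cpm) among them, with a median of 0.09, beside the same shares of all genes. Yap1 had 279 and 241 cpm. Of 18 Hippo and YAP machinery genes compared, 0 were at least 2-fold lower and 1 at least 2-fold higher, with a median of 0.09. Of 11 paralogs compared, 4 were at least 2-fold lower and 1, Tagln2, was at least 2-fold higher (log2 ratio 1.18), beside the same 7.22% and 4.88% of all genes. Cnn2 (32.7 and 139 cpm) had a log2 ratio of −2.07, and Actb had 793 and 1322 cpm, a log2 ratio of −0.74.

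Fibroblast markers were low in the single libraries. Their summed level was 60.2 cpm with the active and 79.8 cpm with the inactive enzyme, 68.0 cpm in WT and 42.7 cpm in Dnmt1-/- cells. Of all genes compared between the dCas9 libraries, 7.22% were at least 2-fold lower with the active enzyme and 4.88% higher, and the marker counts stand beside these shares. Of 6 fibroblast markers compared, 2 were at least 2-fold lower with the active enzyme, Col1a1 (10.0 and 22.9 cpm) and Col1a2 (2.58 and 10.5 cpm). Col1a2 reached the minimum count only through the library with the inactive enzyme, so it is no support for that count of markers. Dcn (0.322 and 0.443 cpm) and Prrx1 (0.0806 and 0.201 cpm) had at most 11 counts in either library. ES markers summed to 6226 cpm with the active and 4409 cpm with the inactive enzyme, with 2 of 9 at least 2-fold higher and a median log2 ratio of 0.57. Primitive endoderm markers summed to 677 and 545 cpm, with 4 of 9 at least 2-fold higher, and trophoblast markers to 135 and 224 cpm, with 2 of 5 at least 2-fold lower. Markers of mature smooth muscle summed to 134 cpm with the active and 127 cpm with the inactive enzyme, and to 134 cpm in WT. Of 5 compared between the dCas9 libraries, 2 were at least 2-fold lower with the active enzyme and 0 higher, with a median log2 ratio of −0.25. Cnn1, which is in that list, reached the minimum count only through the library with the inactive enzyme. The part of these cell types in the difference between the dCas9 libraries was not tested.

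The single Dnmt1-/- and WT libraries gave a different picture of some of the genes than the replicates. Of the 7 genes compared, 5 were at least 2-fold lower in the Dnmt1-/- library, where 6.89% of genes were 2-fold lower and 10.5% were 2-fold higher. Acta2 and Cnn1 reached the minimum only with the WT library, where they were higher, so they are no support for that count. Acta2 had 54 and 356 counts (log2 ratio −2.15), Tpm1 2009 and 7154 (−1.45), Tpm2 340 and 1285 (−1.51) and Cnn1 97 and 418 (−1.63), in Dnmt1-/- and WT, all lower as in the replicates. Myl9, which fell in the replicates, had 319 and 278 counts and a log2 ratio of 0.56. Cyr61, which rose in the replicates, had 366 and 2563 counts and a log2 ratio of −2.40, and Ctgf had 1390 and 2010 counts and a ratio of −0.15. Of 6 fibroblast markers compared there, 4 were at least 2-fold lower and 0 higher, with a median log2 ratio of −1.10. Of 24 other SRF targets, 10 were lower and 2 higher, beside the same 6.89% and 10.5% of all genes. Some of these may have reached the minimum only through the WT library. The part of fibroblast RNA here was not tested.

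Levels differed between the tables as well, which are on separately normalized scales, so their values are only set side by side. The mean WT signal of the replicates was 33.5-fold the cpm of the single WT library for Acta2 (481 and 14.4), 5.31-fold for Myl9 and 1.98-fold for Tpm1. It was 0.895-fold for Cnn1 and 1.12-fold for Cyr61. In Dnmt1-/- cells the same ratio was 10.4-fold for Acta2, 0.406-fold for Myl9, 1.46-fold for Tpm1 and 0.360-fold for Cnn1. For Cyr61 it was 7.17-fold there (138 and 19.3), unlike in WT. Ankrd1 was present with 1285 to 2250 reads in each WT replicate and with 8 counts in the single WT library, a ratio of 170, and of 158 in Dnmt1-/- cells. A gap of that size in both genotypes was absent for Ctgf, at 1.24-fold and 1.21-fold. What sets these gaps was not tested.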

How the data were processed

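RNA-seq libraries of mouse ES cells were used. The genes and lists were chosen with earlier results of these data known. Reads were mapped to mm10 and counted on Ensembl genes; the submitters' processing notes list HISAT2 2.1.0, TopHat2 2.0.11, Bowtie2 2.2.2, featureCounts 1.5.0 and bcl2fastq 2.17. For the single libraries the authors deposited whole counts per gene. For the replicates the deposited values are a normalized signal that the authors made by dividing read counts by a scaled library size; as the file headers and columns disagree, the third column was read. Whole reads were recovered for 100% of its values (tolerance 0.01), 26846275 to 37112247 per library. The single libraries held 18693531 to 25097983 counts. Of the columns holding samples, 0 were left out. No column of the authors' own comparisons was used. The ChIP-seq samples and the repeat table were not analysed here. A list of TGF-beta signalling genes is not reported here.

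Genes kept by filterByExpr on the recovered reads were tested with limma 3.58.1 (trend) on log2(signal + 0.5), adjusted p at most 0.05; alternatives were edgeR 4.0.16 and DESeq2 1.42.0, both run on the recovered reads. Tested on simulated data in which 200 genes were changed 2- or 4-fold, limma called 187 of them and 9 of the unchanged ones among 17297. Far more genes were called in the real data, and the changes of Ctgf and Cyr61 were smaller than those simulated. The simulation therefore gives no error rate for such calls. Single libraries were compared without a test, with edgeR's TMM factors. All 10 genes are named; of each other list, the first 2 genes and at most 3 called genes per direction with the largest change and a mean signal of at least 1 in a group were eligible. Genes named for the single libraries, and the paralogs named beside their family member, were chosen after their values were seen. Exons and lengths came from GENCODE vM21 on GRCm38 and promoters from RefSeq. Software was R 4.3.3 and, for tables and plots, matplotlib 3.10.9, SciPy 1.17.1, NumPy 2.4.6 and pandas 2.3.3 under Python 3.11.15.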

Additional observations from a re-analysis of the deposited data

Results flagged for a closer look

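The direction of 2 genes differed between the single libraries and the replicates in the comparison of Dnmt1-/- with WT cells. Myl9 had a log2 ratio of 0.56 in the single libraries (319 counts in Dnmt1-/- and 278 in WT) and fell between the replicated groups of 3 libraries each, from 59.5 ± 7.58 to 6.81 ± 0.702. Cyr61 had a log2 ratio of −2.40 in the single libraries (366 and 2563 counts) and rose in the replicates, from 116 ± 10.8 to 138 ± 3.84. With 1 library per condition on one side, the difference between the tables was not tested.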

How the results depend on the processing

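Across the replicates, 9 genes stayed lower and 1 higher under other pseudocounts, scalings and tools and without each library in turn; with a mean signal of at least 1, Tagln was not tested and 8 were lower. Without each library in turn, Acta2 ranged from −4.12 to −3.87, Ctgf from −0.23 to −0.15 and Cyr61 from 0.18 to 0.32. The largest adjusted p over all alternatives was 0.032, for Ctgf. The fold changes of Tagln (−2.35 to −0.53) and Actg2 (−3.18 to −1.33) moved most, from DESeq2 to limma with a pseudocount of 2, and rest on few reads. With the replicate block, 9 fell and 1 rose, and 12556 genes were called in place of 12324; deviations of equally numbered libraries correlated at 0.074, −0.016 and 0.065, so the numbers were not taken as pairs. Between the dCas9 libraries, a pseudocount of 5 cpm left 3 of the 7 genes 2-fold lower in place of 5, with Acta2 at −0.95 and Cyr61 at −0.90. No result reversed under the alternatives run.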
